A study of Mus musculus with 96 samples.

Results

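The subunit genes of the proteasome, the protease that degrades ubiquitin-tagged proteins, were followed through 96 single mouse neurons. The members are the genes of the count table whose symbol is Psma, Psmb, Psmc or Psmd followed by a number, with at least 1 count in 5 or more of the 96 cells. There were 24054 genes in all; 39 symbols matched and 37 of these met the count rule. Psma8, with a count in 5 cells, was just inside, and Psmb9, with a count in 3 cells, and Psmb11, with a count in 0 cells, were outside. The core particle holds 17 members (Psma and Psmb), the regulatory particle 17 (Psmc and Psmd), and 3 further Psmd genes, Psmd5, Psmd9 and Psmd10, encode chaperones that help assemble the base and are not subunits of the finished particle.

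In the core particle, rings of alpha subunits gate the entry to a chamber formed by rings of beta subunits, and Psmb5, Psmb6 and Psmb7 carry the proteolytic sites. The regulatory particle caps the core: its base holds the ATPases Psmc1 to Psmc6, which unfold substrates, and its lid holds Psmd14, the enzyme that removes the ubiquitin chain as the substrate enters. Psmb8, Psmb9 and Psmb10 are inducible beta subunits that replace the constitutive catalytic ones in the immunoproteasome of immune cells and of cells exposed to interferon. Neurons keep proteasomes in the soma, dendrites and synapses, where degradation takes part in synaptic remodelling.

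All cells came from the hypothalamus of C57BL/6N mice aged 2-3 months and were labelled as neurons of the preoptic area, a hypothalamic centre of thermoregulation. Whole-cell patch-clamp recordings were made in brain slices, after which the cell was drawn into the glass pipette and its RNA amplified with Smart-seq2. By their labelled temperature response 24 cells were temperature-insensitive (here insensitive), 21 warm-sensitive, 5 cold-sensitive, 18 silent and temperature-insensitive (silent insensitive) and 10 silent and temperature-sensitive (silent sensitive). A further 18 cells were labelled unknown and entered no comparison. No genotype, Cre line or agent is named for any group. The labels tie no cell to an animal or a slice, so each class counted as 1 sample: no test was made, no p-value is given, and differences between classes are descriptions of these cells that may include differences between animals.

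Total counts ran from 465167 to 3660726 per cell. Rn45s, the ribosomal RNA precursor, made up 45.4% of counts in the median insensitive cell and 67.7% in the median warm-sensitive cell, the lowest and highest of the 5 classes, and exceeded 75% in 8 warm-sensitive, 4 silent insensitive, 2 silent sensitive, 0 insensitive and 0 cold-sensitive cells. By the median, silent sensitive cells had the fewest genes with a count (3230) and cold-sensitive cells the most (4645), with 3244 in warm-sensitive and 4022 in insensitive cells. By the mean, warm-sensitive cells had the fewest (3156) and insensitive cells the most (4540). Median counts outside Rn45s were 314892 in warm-sensitive and 761928 in insensitive cells. Of 10 neuronal markers a median of 9 were at 10 CPM (a cell's counts scaled to a total of 1000000) or more in insensitive and in cold-sensitive cells and of 6 to 6.5 in the other classes, and in no cell were all 10 below that level. Markers of other brain cells were also present: the class medians of the summed CPM of 10 microglial genes ran from 440 in insensitive to 2477 in cold-sensitive cells, those of 8 oligodendrocyte genes from 86.5 in warm-sensitive to 497 in cold-sensitive cells, those of 8 astrocyte genes from 427 in silent sensitive to 895 in insensitive cells, and those of 6 endothelial genes from 0 to 37.1. The part of these markers and of depth in the values below was not tested.

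Promoter windows were taken from the RefSeq table on GRCm38.p6, which spans 250 bases before to 50 bases after each start and held 30 of the 37 members (all but Psma8, Psmb1, Psmb2, Psmb7, Psmc3, Psmd3 and Psmd7). On both strands 4 motifs were searched, and different motifs did not overlap in these windows. The ETS core CCGGAAG was in 9 of 17 Psmc and Psmd promoters, in 1 of 13 Psma and Psmb promoters (Psma6) and in 9.93% of 27025 genes. The motif of nuclear respiratory factor 1, spelled GCGCA, any base and GCGC, was in 20% of the member promoters (6 of 30) and in 5.19% of genes. The core of the antioxidant response element, TGACNNNGC, to which Nfe2l1 and Nfe2l2 bind, was in 5 of 30 (16.7%) against 13.99% of genes, and the CCAAT box CCAAT in 11 of 30 (36.7%) against 41.1%. A match is a description of the letters only. The 120 bases just upstream of the annotated exons are shown for 7 of the 9 windows of this kind that hold a motif other than the CCAAT box (those of Psmd9 and of Psma6, the 1 core gene with an ETS core, are not printed), 5′ to 3′ on the gene's strand with the motif in capitals: the antioxidant response element core in the catalytic genes Psmb6 and Psmb5, the ETS core in Psmc6, Psmd2 and Psmd11 (reversed in the latter 2), and the nuclear respiratory factor 1 motif in Psmd14 (reversed) and Psma3.
Psmb6 chr11:70525237-70525356 (plus strand): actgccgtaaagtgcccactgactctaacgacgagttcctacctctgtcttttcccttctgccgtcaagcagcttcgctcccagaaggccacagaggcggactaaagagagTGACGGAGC
Psmb5 chr14:54618023-54618142 (minus strand): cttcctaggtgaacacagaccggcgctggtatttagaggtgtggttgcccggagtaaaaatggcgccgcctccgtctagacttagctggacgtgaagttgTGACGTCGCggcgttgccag
Psmc6 chr14:45329668-45329787 (plus strand): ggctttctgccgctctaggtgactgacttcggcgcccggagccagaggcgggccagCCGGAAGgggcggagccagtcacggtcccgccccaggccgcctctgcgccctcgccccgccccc
Psmd2 chr16:20651532-20651651 (plus strand): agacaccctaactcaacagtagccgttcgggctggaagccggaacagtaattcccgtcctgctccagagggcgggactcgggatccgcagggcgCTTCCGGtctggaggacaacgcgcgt
Psmd11 chr11:80428495-80428614 (plus strand): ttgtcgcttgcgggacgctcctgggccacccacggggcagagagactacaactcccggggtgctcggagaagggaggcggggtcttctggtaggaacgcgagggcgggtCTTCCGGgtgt
Psmd14 chr2:61711574-61711693 (plus strand): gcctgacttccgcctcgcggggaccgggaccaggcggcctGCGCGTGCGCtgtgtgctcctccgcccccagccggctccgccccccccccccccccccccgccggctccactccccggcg
Psma3 chr12:70974501-70974620 (plus strand): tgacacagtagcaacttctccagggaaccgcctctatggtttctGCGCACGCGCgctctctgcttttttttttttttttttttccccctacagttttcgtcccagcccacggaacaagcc

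Per kilobase of exon, the most abundant member over the 78 classified cells was Psmc5, an ATPase, at a mean of 154 CPM per kb, followed by the alpha subunit Psma6 at 126, the catalytic Psmb6 at 105 and the beta subunit Psmb2 at 102. The lowest were Psma8, the alpha subunit of testis, at 0.809 CPM per kb, and the chaperone genes Psmd9 at 2.81 and Psmd5 at 4.98. Median levels per kb were 26.6 CPM in the alpha ring, 62.5 in the beta subunits without proteolytic sites, 39.7 in the catalytic beta subunits, 43.8 in the base ATPases and 32.1 in the lid. Genes of the same ring thus differed in level, as with Psma5 at 18.7 and Psma6 at 126 CPM per kb in the alpha ring.

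Single cells held partial sets of these transcripts. At 10 CPM or more, insensitive cells contained 8 to 35 of the 37 members (median 22), warm-sensitive cells 5 to 16 (median 9), cold-sensitive cells 4 to 29 (median 24), silent insensitive cells 3 to 35 (median 16.5) and silent sensitive cells 4 to 20 (median 11.5). The warm-sensitive cells lay in the lower part of the insensitive range or below it (5 of the 21 cells, at 5 or 6 members). After every cell was thinned to 100000 counts outside Rn45s, which left out 1 warm-sensitive cell, the medians of members with a count were 24, 14, 28, 20 and 17.5 in the same order of classes. The order of the classes was the same with and without thinning.

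**Figure D1:**
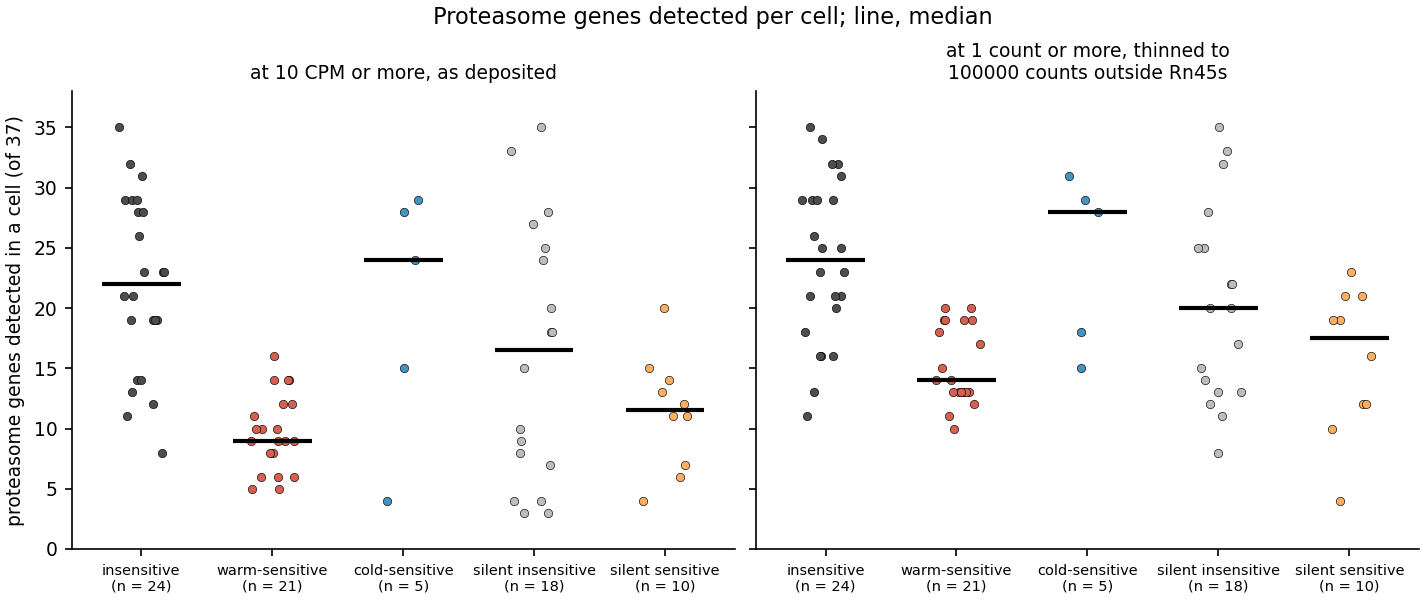
Number of the 37 proteasome genes detected in each cell (vertical axis) by class; points are cells and lines medians. At left genes count as detected at 10 CPM, with medians of 22 in insensitive and 9 in warm-sensitive cells; at right every cell is thinned to 100000 counts outside Rn45s and a gene needs 1 count, with medians of 24 and 14.

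The lower number in warm-sensitive cells was shared with other genes. In the 31 members that reached 10 CPM in 25% or more of the 78 cells, 66.1% of gene and cell pairs were detected in insensitive cells and 30.4% in warm-sensitive cells; over all 2792 genes that met the same limit these shares were 56.5% and 32.6%. The members thus stood above the other genes in insensitive cells by detection and slightly below them in warm-sensitive cells. Cold-sensitive cells had 58.7% against 51.3%, silent insensitive 48.4% against 44.0% and silent sensitive 35.5% against 34.4%. Where a member was detected, its level had a median of 168 CPM in insensitive, 155 CPM in warm-sensitive and 140 CPM in cold-sensitive cells. It was 165 CPM in the silent insensitive class and 186 CPM in the silent sensitive class. Over the 2792 genes this level was 109 CPM in insensitive and 130 CPM in warm-sensitive cells. The classes thus differed in how many cells reached 10 CPM. Values below 10 CPM do not enter the level, so it cannot show whether classes differ mainly in level or in detection. Cells below 10 CPM could hold counts: a median of 29 members had a count in insensitive and 22 in warm-sensitive cells.

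Complete rings were rare. All 7 alpha subunits Psma1 to Psma7 were at 10 CPM or more in 4 of 24 insensitive cells (16.7%, exact Clopper-Pearson 95% interval 4.74 to 37.4%), 1 of 5 cold-sensitive and 4 of 18 silent insensitive cells. They were in 0 of 21 warm-sensitive cells, which allows up to 16.1%, and in 0 of 10 silent sensitive cells, which allows up to 30.8%. All 6 ATPases gave the same counts in each class. Intervals and upper limits, here and below, cover counting error only. Those on a share of cells treat the cells of a class as independent draws. They leave out differences between animals, which the labels do not name. After thinning, the alpha set was complete in 5 of 24 insensitive, 0 of 20 warm-sensitive, 2 of 5 cold-sensitive, 6 of 18 silent insensitive and 1 of 10 silent sensitive cells. Over the 78 cells the numbers of core and of regulatory members detected had a Pearson r of 0.83 and a Spearman rho of 0.82 (r 0.82 without the 2 farthest cells). Both numbers come from the same library in each cell, and the number of members detected also had an r of 0.85 (rho 0.86) with the number of genes with a count. Within classes r between core and regulatory members was 0.81 in insensitive (n = 24), 0.86 in silent insensitive (n = 18) and 0.75 in silent sensitive cells (n = 10), but 0.19 in warm-sensitive cells (n = 21) and -0.03 there without the 2 farthest cells. Spearman's coefficient was 0.80, 0.84, 0.65 and 0.16 in these classes. The numbers detected spanned less in warm-sensitive cells, 2 to 8 core and 0 to 8 regulatory members, than in insensitive cells, 4 to 15 and 4 to 17. The part of this narrower range in the lower coefficient was not tested.

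**Figure D2:**
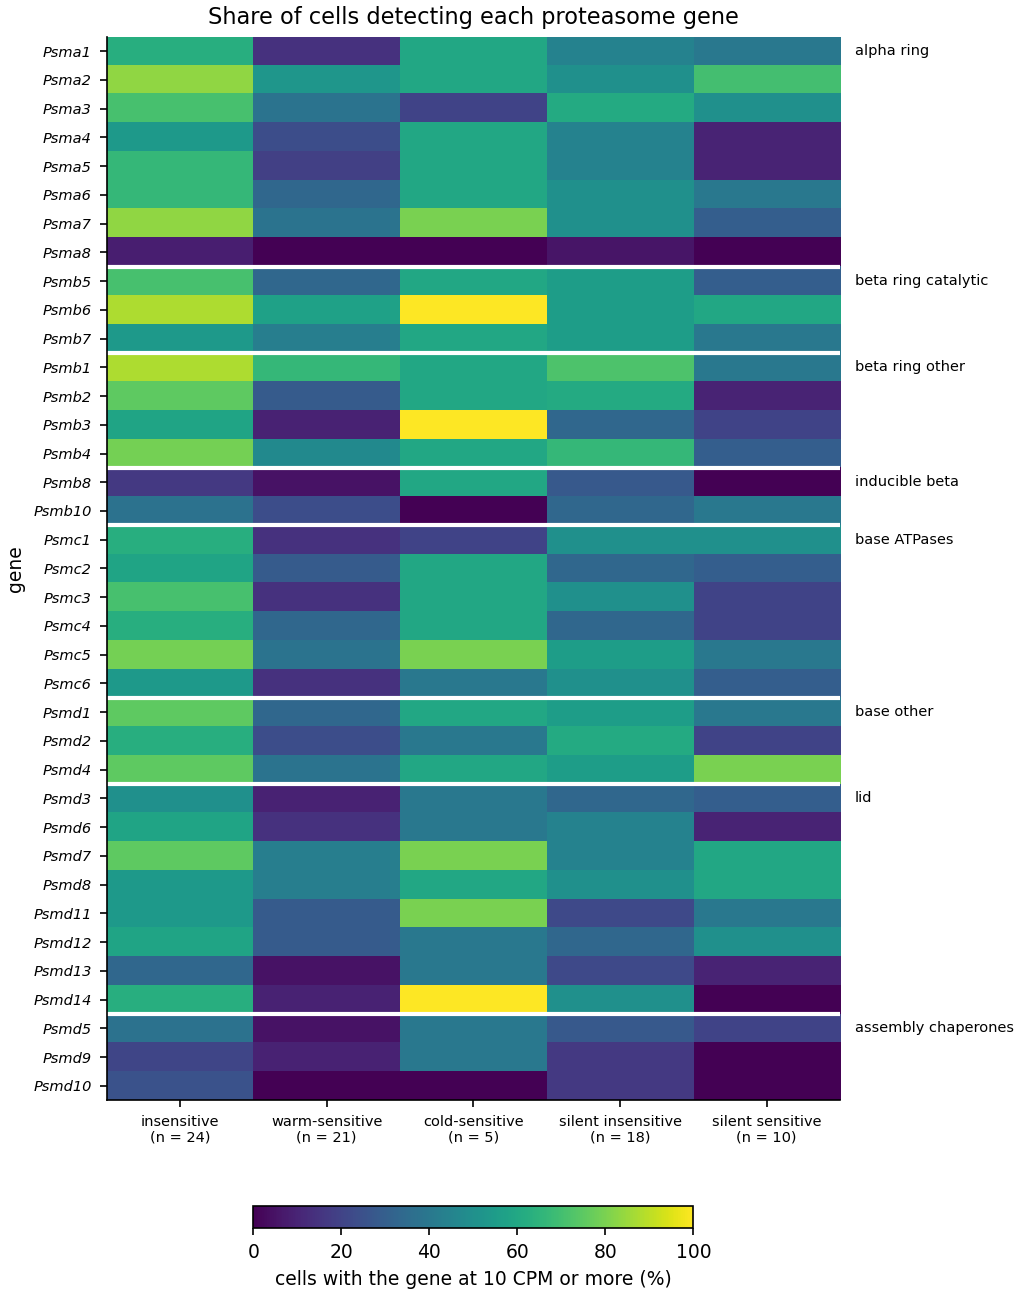
Share of cells (colour, in percent) at 10 CPM or more for each of the 37 members (rows, by role) in each class (columns). For every one of the 37 members the share is lower in warm-sensitive than in insensitive cells, while Psmd14, Psmb3 and Psmb6 reach 100% of the 5 cold-sensitive cells. Detection was also lower over the 2792 genes that met the limit on low values, at 32.6% of gene and cell pairs in warm-sensitive against 56.5% in insensitive cells.

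The core and regulatory particles were then compared over the classes. The 17 core genes together ran from 679 to 3362 CPM per insensitive cell (median 1815), from 358 to 5056 per warm-sensitive cell (median 720), from 1314 to 2345 per cold-sensitive cell (median 1979), from 3.68 to 3486 per silent insensitive cell (median 1324) and from 44.6 to 1713 per silent sensitive cell (median 972). The 17 regulatory genes ran from 522 to 5329 CPM (median 2389), 20.1 to 7537 (median 849), 1122 to 2783 (median 1338), 102 to 4883 (median 1150) and 389 to 3721 (median 1694) in the same order. The ranges of all 5 classes overlapped on both sums. The highest sums of both particles were in warm-sensitive cell 2, which stood apart from the other 20 warm-sensitive cells: without it the regulatory level of the pooled class went from 1478 to 986 CPM and the core level from 1385 to 1086 CPM. The pooled levels in insensitive cells were 2668 CPM (regulatory) and 1992 CPM (core). Outside Rn45s the pooled core level was 3831 CPM in all 21 warm-sensitive cells, cell 2 included, and 3879 CPM in insensitive cells. The regulatory level outside Rn45s was 4091 CPM in warm-sensitive against 5196 CPM in insensitive cells. Warm-sensitive cell 2 had the lowest share of Rn45s in its class, at 29.3%. Levels outside Rn45s were not computed without it, so the near match of the core levels may rest on this cell.

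Core genes made up 42.7% of the summed core and regulatory counts of insensitive cells and 48.4% of those of warm-sensitive cells, or 52.4% without cell 2. The share was 50.2% for the cold-sensitive, 46.4% for the silent insensitive and 36.5% for the silent sensitive class. Counting error was small (exact interval 49.7 to 50.8% in the 5 cold-sensitive cells), but the share of single cells had an SD of 9.43 percentage points for the insensitive, 20.3 for the warm-sensitive, 10.2 for the cold-sensitive, 21.1 for the silent insensitive and 18.9 for the silent sensitive class. In each of the 3 comparisons below the difference in core share was smaller than the SD of either class, except that without warm-sensitive cell 2 the first was larger than the insensitive SD. At the extremes, nearly all of a cell's summed CPM came from the genes of 1 particle. Warm-sensitive cell 1 had 2338 CPM of core and 20.1 CPM of regulatory genes (a core share of 99.1%). Silent sensitive cell 8 had 44.6 CPM of core and 3721 CPM of regulatory genes (1.18%). Only 6 and 4 of the 37 members were at 10 CPM or more in these cells, while 24 and 20 had a count. The top member of a cell held a median of 27.1% of its member CPM in the warm-sensitive class, 22.1% in the silent sensitive, 17.2% in the silent insensitive, 14.9% in the insensitive and 12.1% in the cold-sensitive class.

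**Figure D3:**
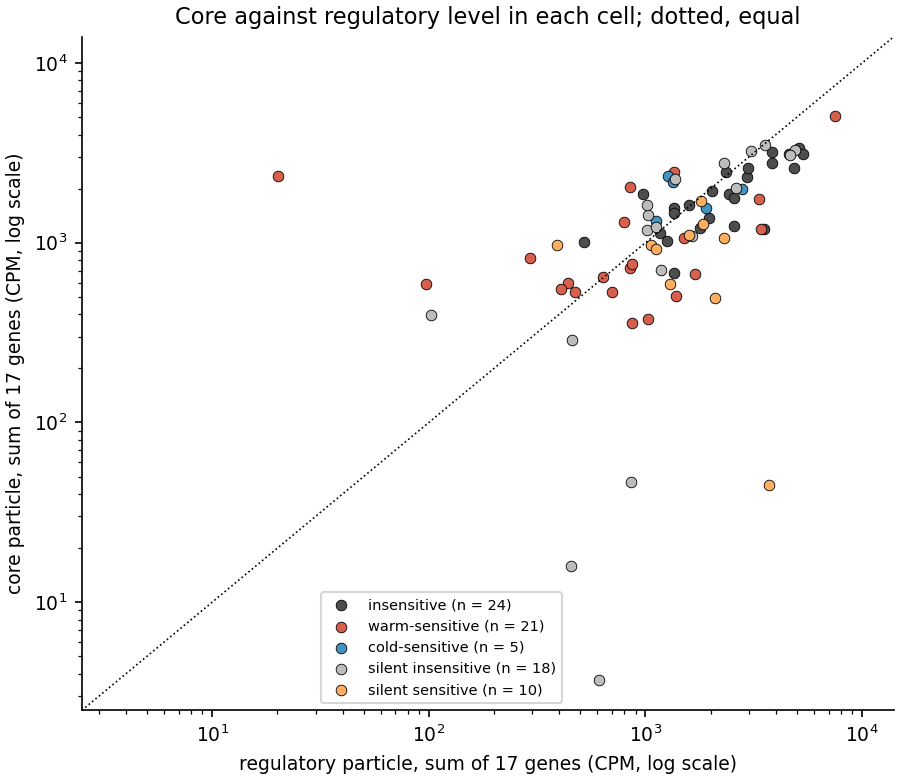
Summed CPM of the 17 regulatory genes (horizontal, log scale) and of the 17 core genes (vertical, log scale) in each classified cell, coloured by class; the dotted line marks equal sums. Insensitive cells lie near the line, and the cells farthest from it are warm-sensitive cell 1, with core genes at 99.1%, and silent cells with core genes below 6% of the sum.

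Warm-sensitive cells were compared with insensitive cells by averaging log2(CPM + 1) over the cells of a class and subtracting; with the added 1 CPM, differences of low genes come out too small. Of the 31 members tested, 28 (90.3%) were lower by 1 or more, against 70.0% of the 2792 genes, and 0 were higher by 1 or more, against 0.501% of genes. The median member lay at -2.51 and the median gene at -1.53. The members were also the higher set in insensitive cells, with a median of mean log2(CPM + 1) of 5.28 against 3.74 for the 2792 genes. The 2792 genes were not matched to the members for level, and the part of level in these differences was not tested. Core members had a median of -2.48 and regulatory members of -2.79, a difference of 0.30 that kept its sign under every alternative (0.20 to 0.79) and was smaller than the SD over cells of 2.04. The warm-sensitive cells also had lower neuronal markers (median sum 1675 against 3822 CPM) and more Rn45s, whose part in the difference was not tested. By role the medians were -3.19 for the 6 ATPases, -2.96 for Psmd1, Psmd2 and Psmd4, -2.66 for the beta subunits without proteolytic sites, -2.48 for the alpha ring, -1.72 for the lid and -1.68 for the catalytic subunits. Genes of the cytosolic ribosome had a median of -0.73 (17 of 47 lower by 1 or more) and nuclear genes of oxidative phosphorylation one of -1.84 (57 of 72).

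The lowest member was Psmd14, the deubiquitinating enzyme of the lid (chr2:61711694-61800376 on mm10, plus strand). Its level ran from 0 to 698 CPM in insensitive cells (median 112) and from 0 to 85.3 CPM in warm-sensitive cells (median 0.692). It was low in nearly all warm-sensitive cells, and the classes overlapped because 9 of 24 insensitive cells were below 10 CPM too. The difference was -4.21, and pooled counts gave 163 CPM (exact Poisson 95% interval 159 to 167) against 5.71 (4.84 to 6.68); 122 of the 155 warm-sensitive counts were in cell 9, and the value without it was 1.28 CPM. Psmc1, an ATPase of the base, ran from 0.486 to 828 CPM in insensitive (median 131) and from 0 to 313 in warm-sensitive cells (median 0.931), a difference of -3.94. Only 3 warm-sensitive cells were at 10 CPM or more, against 15 insensitive ones. Psmc3, another ATPase, ran from 0 to 387 (median 158) and from 0 to 308 CPM (median 1.21), a difference of -3.69. The alpha subunit Psma1 ran from 0 to 1027 (median 127) and from 0 to 550 CPM (median 1.08), a difference of -3.65. Each of these 4 genes thus had a warm-sensitive median near 0, and a few cells held most of its counts. For Psma1, 1181 of the 1322 warm-sensitive counts were in cell 3, and the pooled level went from 48.7 to 5.64 CPM without it. For Psmc1, 405 of 664 were in cell 12, and for Psmc3, 332 of 680 were in cell 6.

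The members least different from insensitive cells were Psmb10, Psmb7, Psmd8 and Psmd11. Psmb10, an inducible catalytic subunit, ran from 0 to 118 CPM in insensitive (median 0.969) and from 0 to 737 CPM in warm-sensitive cells (median 0), at -0.33; its 3 highest warm-sensitive cells lay above every insensitive cell, and pooled counts gave 83.6 against 23.9 CPM, or 52.5 CPM without warm-sensitive cell 4. The catalytic Psmb7 had medians of 28.7 and 2.36 CPM and maxima of 165 and 162, at -0.77. The lid subunit Psmd8 had medians of 65.6 and 2.10 CPM and maxima of 464 and 565, at -0.79. These 3 differences changed sign with DESeq2 size factors (0.33, 0.41 and 0.41) and relative to the median gene (1.20, 0.75 and 0.73). Psmd11, also of the lid, had medians of 15.9 and 1.27 CPM and maxima of 426 and 394, at -1.31, or 0.21 relative to the median gene. The other catalytic subunits lay at -2.51 (Psmb6) and -1.68 (Psmb5), and the ubiquitin receptor Psmd4 of the base at -2.96.

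The size of the member difference depended on the scale. Against the median gene under the same scaling, the median member lay lower by 0.98 in the main values, 0.91 with TMM, 0.69 with DESeq2 size factors, 0.97 without cells over 75% Rn45s and 1.09 after thinning. With no limit on low genes it lay lower by 1.78, and 31 of 37 members were lower by 1 or more against 30.0% of genes, many of them low. With the limit at 50% of cells the median member was at -2.48 and the median gene at -1.76. On pooled counts, in which a few high cells weigh most, the median member was at -0.75 and the median gene at -0.66, so that the members lay close to the other genes, with 13 of 31 lower by 1 or more against 37.7% of genes. Without warm-sensitive cell 2 the pooled values were -1.30 for the median member and -0.78 for the median gene. Within the letter shared by cell titles, which stands for a group not explained in the labels, the median member was at -2.07 and the median gene at -1.48.

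**Figure D4:**
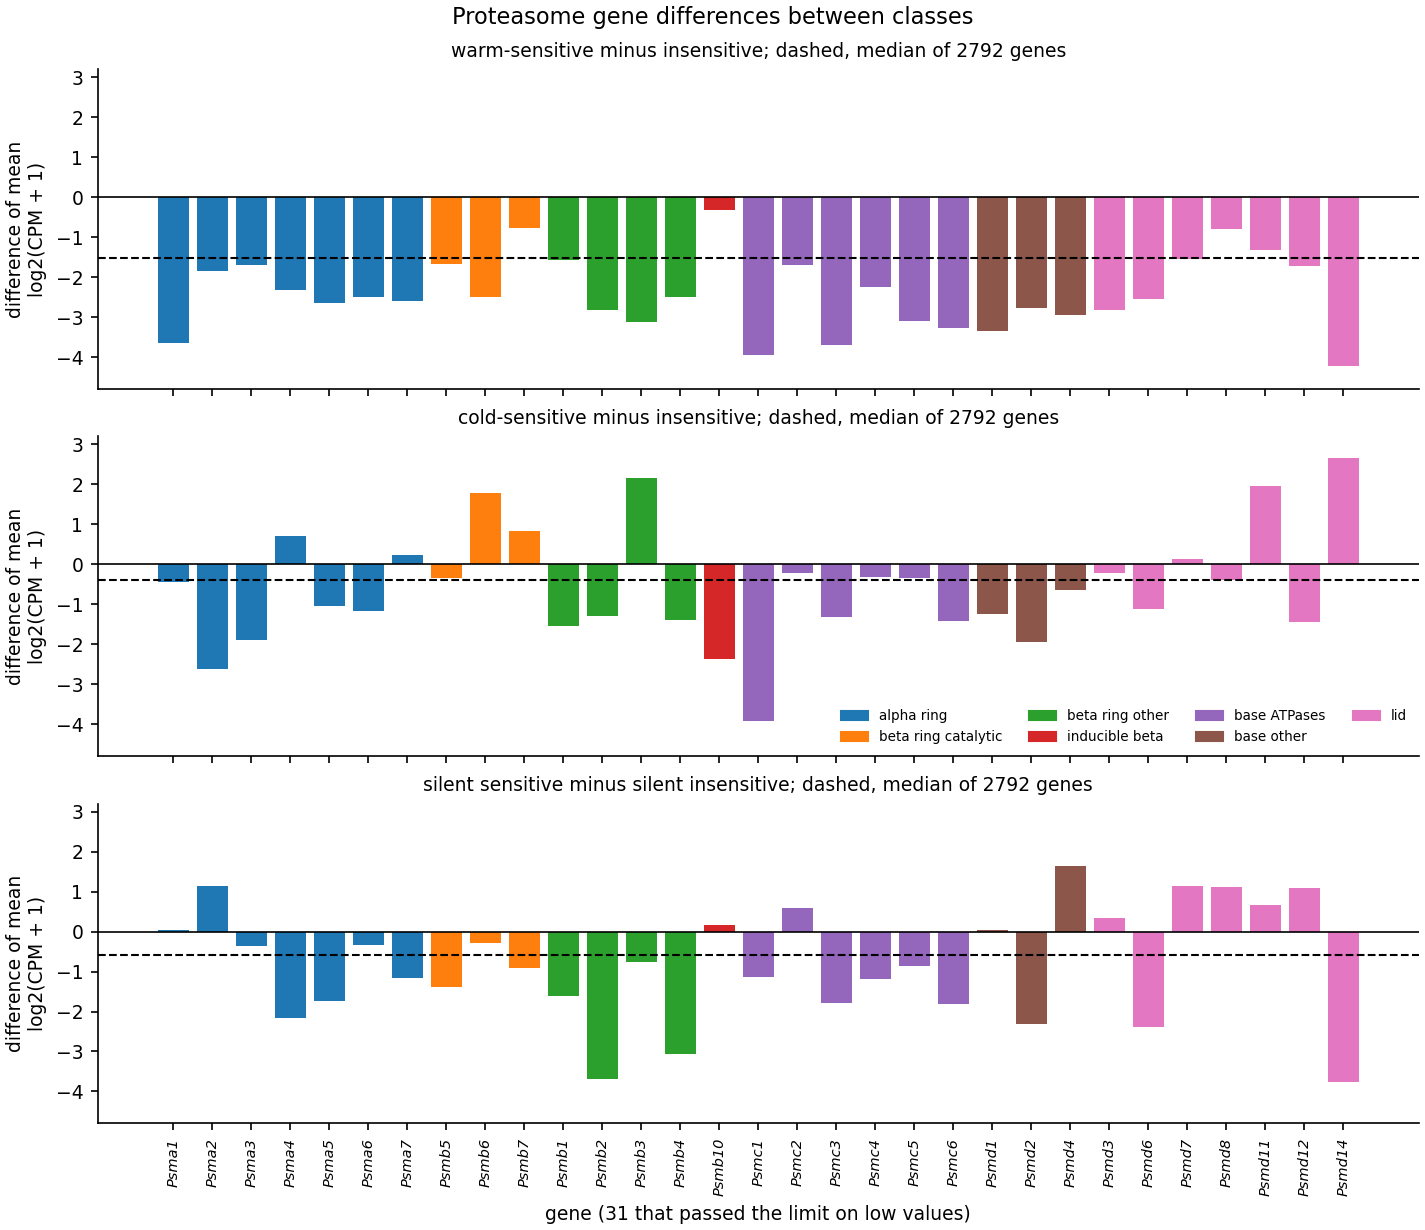
Difference of mean log2(CPM + 1) (vertical axis) for the 31 members that met the limit on low values, coloured by role, in each comparison; the dashed line is the median of 2792 genes. In warm-sensitive cells 27 of the 31 bars end below the dashed line at -1.53, while in the other comparisons bars lie on both sides of 0.

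Other genes of the pathway, from a list of 34, 20 of which met the limit, lay in the same direction in warm-sensitive cells: 18 were lower by 1 or more (70.0% of all genes) and 0 higher (0.501%), with a median of -1.75 beside -1.53 for the median gene. The list holds Nfe2l1, the transcription factor that drives proteasome genes when proteasome activity is low, at -2.28, Uba1, the main ubiquitin-activating enzyme, at -2.91, and the small lid subunit Shfm1 at -3.50, the lowest. The polyubiquitin gene Ubb was at -1.11. The 2 genes not lower by 1, named after their values were seen, were Psme2, a subunit of the activator that pairs with the immunoproteasome, at 0.14, and AI314180, a proteasome-associated scaffold, at 0.32.

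Cold-sensitive cells, which share the insensitive cells as control with the warm-sensitive ones, numbered only 5. Members lay on both sides of 0, as the genes at large did. Of the 31 members 15 were lower by 1 or more, against 32.3% of the 2792 genes, and 4 were higher by 1 or more, against 14.8%. With TMM the lower share was 25.8% of members, near the 24.7% of genes. The median member lay at -0.65 and the median gene at -0.40. Leaving out cold-sensitive cell 4, in which 4 of 37 members were detected, took the lower count from 15 to 5, the higher count from 4 to 8 and the median member to 0.16; all genes moved too, to 20.7% lower, 28.4% higher and a median of 0.20. Without cold-sensitive cell 3 the median member was at -1.42 and the median gene at -0.71, and without cold-sensitive cell 2 the lower count was 8, against 32.2% of genes. The higher count was 1 on pooled counts, against 7.99% of genes, and 7 within title letters, against 21.4%. Core members had a median of -1.04 and regulatory members of -0.52, but the difference changed sign on pooled counts (0.29) and without cold-sensitive cell 2 (0.18). By role, catalytic subunits were at a median of 0.83, the lid at -0.21, the ATPases at -0.83, the alpha ring at -1.04, Psmd1, Psmd2 and Psmd4 at -1.25 and the beta subunits without proteolytic sites at -1.35.

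The members highest in cold-sensitive cells were detected in nearly all of them. Psmd14 was at 114, 156, 346, 1317 and 107 CPM in cold-sensitive cells 1 to 5, against a median of 112 in insensitive cells, a difference of 2.66. Psmb6 was at 391, 329, 222, 1541 and 304 CPM, against 0.972 to 1242 in insensitive cells (median 192), a difference of 1.80. Psmb3, a beta subunit without a proteolytic site, was at 63.9, 42.6, 25.9, 613 and 10.9 CPM, against 0 to 115 (median 23.7), a difference of 2.17. All 5 cells held these 3 genes, and in each case the values overlapped those of the insensitive cells that detected them. Cell 4 was the highest in all 3. Psmd11 ran from 2.31 to 226 CPM (median 93.9), a difference of 1.97.

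At the other end Psmc1 was at 0, 0, 2.56, 0 and 82.5 CPM in the 5 cells, a difference of -3.92. Its level was low in 4 of the 5 cells, as it was in 9 of the 24 insensitive cells. The alpha subunit Psma2 ran from 0 to 171 CPM in cold-sensitive (median 12.7) and from 0 to 513 in insensitive cells (median 121), a difference of -2.61. Psmb10 was below 1 CPM in all 5 cells, and 0 of 5 at 10 CPM or more allows up to 52.2%; its difference was -2.38. Psmd2, a scaffold of the base, had medians of 8.76 and 102 CPM, a difference of -1.94. Of the 20 other pathway genes 9 were lower and 4 higher by 1 or more, against 32.3% and 14.8% of all genes, among them the activator subunit Psme1 at 2.12 and Uba1 at 1.81, while the ubiquitin shuttle Ubqln1 was at -2.91. Nfe2l1 was at 1.49 and Ubb at 0.16.

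Among silent cells, those sensitive to temperature were compared with those that were not. Of the 31 members 14 were lower by 1 or more, against 35.5% of genes, and 5 were higher by 1 or more, against 7.02% of genes. The median member lay at -0.87 and the median gene at -0.58, and under DESeq2 size factors both were above 0 (0.18 and 0.09). Core members had a median of -0.92 and regulatory members of -0.42; the difference was near 0 without silent sensitive cell 1 (0.02). The lid had a median of 0.67 and the beta subunits without proteolytic sites one of -2.33. Without cells over 75% Rn45s the median member was at -1.75, with 19 of 31 lower by 1 or more against 53.0% of genes, and 2 higher, against 5.80%. Leaving out silent sensitive cell 4 took the higher count from 5 to 1, against 6.38% of genes.

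Psmd14 was the lowest member, at -3.77. Its level ran from 0 to 716 CPM in silent insensitive cells (median 9.37) and from 0 to 2.39 CPM in silent sensitive cells (median 0.749). All 10 silent sensitive cells were low, and the classes overlapped because 9 of 18 silent insensitive cells were below 10 CPM; 0 of 10 allows up to 30.8% of cells. The beta subunit Psmb2 ran from 0 to 988 CPM (median 125) and from 0 to 245 CPM (median 0.940), a difference of -3.68, with 1 silent sensitive cell at 10 CPM or more. Psmb4, another of the beta subunits without proteolytic sites, ran from 0 to 810 (median 213) and from 0 to 165 CPM (median 0.901), a difference of -3.05. The lid subunit Psmd6 had maxima of 573 and 265 CPM and medians of 1.05 and 0.703, a difference of -2.38.

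Psmd4, the ubiquitin receptor, was the highest member in this comparison. It ran from 0 to 528 CPM in silent insensitive (median 36.0) and from 0.786 to 408 CPM in silent sensitive cells (median 157), a difference of 1.65, with 8 of 10 silent sensitive cells at 10 CPM or more against 10 of 18. The other high members were Psma2 at 1.14, Psmd7 at 1.14, Psmd8 at 1.11 and Psmd12 at 1.09. The first 3 had silent sensitive medians of 122, 16.5 and 102 CPM against 20.3, 2.10 and 10.1. Their ranges overlapped, and Psma2 was at -0.12 without cells over 75% Rn45s. Of the 20 other pathway genes 9 were lower and 0 higher by 1 or more, against 35.5% and 7.02% of all genes, with Nfe2l1 at -1.31, Ubb at -0.33 and AI314180 the lowest at -2.12.

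**Figure D5:**
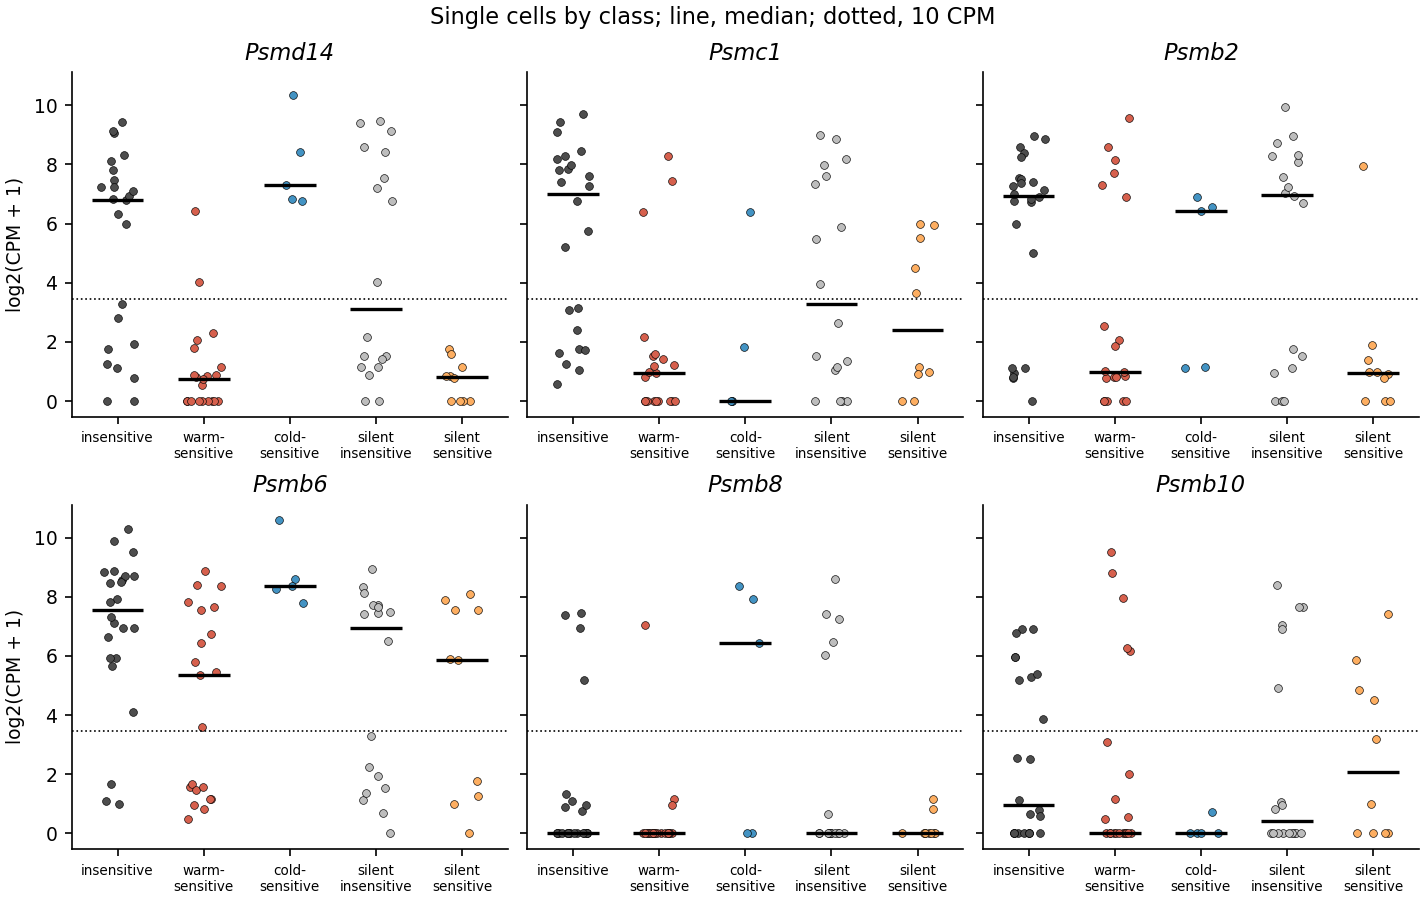
log2(CPM + 1) (vertical axis) of 6 members in single cells by class; lines are medians and the dotted line is 10 CPM. Cells fall into those near 0 and those above 10 CPM, and the classes differ in how many cells lie above: for Psmd14 these are 15 of 24 insensitive, 2 of 21 warm-sensitive, 5 of 5 cold-sensitive, 9 of 18 silent insensitive and 0 of 10 silent sensitive cells.

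Psmd14 had the widest spread of detection over the classes among the members, from 0% in silent sensitive to 100% in cold-sensitive cells. Among other lid genes, Psmd13 and Psmd6 were also least often detected in the warm-sensitive (4.76% and 14.3%) and silent sensitive cells (10% for both). Psmd7, which forms a dimer with Psmd14 in the lid, was at 10 CPM or more in 9 of 21 warm-sensitive, 4 of 5 cold-sensitive and 6 of 10 silent sensitive cells. In the 18 cells of unknown class Psmd14 ran from 0 to 1121 CPM with a median of 214.

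The inducible beta subunits had different patterns. Psmb8 (chr17:34197721-34201454 on mm10, plus strand) was at 241, 328, 0, 0 and 85.7 CPM in the 5 cold-sensitive cells, and at 10 CPM or more in 4 of 24 insensitive, 1 of 21 warm-sensitive, 5 of 18 silent insensitive and 0 of 10 silent sensitive cells. Pooled counts gave 143 CPM in cold-sensitive (interval 135 to 151) and 25.03 CPM in insensitive cells (23.5 to 26.6). Without cold-sensitive cell 2, which held 802 of the 1313 counts, the first value was 75.9 CPM. Psmb8 did not meet the limit on low values, since it was detected in 13 of 78 cells. Its difference between cold-sensitive and insensitive cells, 3.21, was therefore not ranked with the other members. Over the 78 cells its level had an r of 0.47 with that of the 10 microglial markers (rho 0.47, and r 0.46 without the 2 farthest cells), while Psmb10 had an r of 0.08 (rho 0.05); the points share a library and depth. The microglial median was highest in the cold-sensitive class, at 2477 CPM with a range of 8.09 to 11145 CPM (3.40 to 15759 in insensitive cells), with a median of 7 of 10 markers at 10 CPM or more per cold-sensitive cell against 2.5 per insensitive cell. Of the 10 markers 1, Tmem119, was at 0 in all 5 cold-sensitive cells. Whether these RNAs came from the recorded neuron was not tested.

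The 6 members that did not meet the limit were Psma8, Psmb8, Psmd5, Psmd9, Psmd10 and Psmd13. The lid subunit Psmd13 was at 10 CPM or more in 8 of 24 insensitive and 1 of 21 warm-sensitive cells. The chaperone gene Psmd10 reached 642 CPM in an insensitive cell and was at 10 CPM or more in 6 insensitive and 3 silent insensitive cells, and in 0 of 21 warm-sensitive, 0 of 5 cold-sensitive and 0 of 10 silent sensitive cells, which allows up to 16.1%, 52.2% and 30.8%. Psmd5 was in 9 of 24 insensitive and 1 of 21 warm-sensitive cells, and Psmd9 in 5 and 2. Psma8 was in 2 insensitive and 1 silent insensitive cell.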

How the data were processed

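Single-cell RNA-seq covered 96 preoptic neurons. The main values start from the whole-number counts the authors deposited; their deposited normalized signal served as an alternative. FastQC, STAR, edgeR and mm10 appear, with no version, in the submitters' processing notes. The annotation, counting tool, strand setting and scaling of the signal were not given in the sources used here. By GENCODE M21, 10 members share exon bases with another gene (Psma4, Psma5, Psmb5, Psmb7, Psmb8, Psmc3, Psmd1, Psmd3, Psmd9 and Psmd13), as Psmd1 does with Htr2b, and their reads could not be told apart here, nor could those of processed copies elsewhere in the genome.

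CPM is a count over its cell's total, Rn45s included, times 1000000. Detection meant 10 CPM or more, a pseudocount of 1 CPM was used, and genes entered the comparisons if 25% or more of the 78 classified cells, whatever their class, reached 10 CPM. A member was counted as lower or higher from a difference of 1 on the log2 scale. Members and lists were chosen with earlier results of these data known. Named were, in each comparison, the 4 lowest and 4 highest members within that limit, with Psmb5, Psmb6, Psmb7, Psmb8, Psmb9, Psmb10, Psmd1, Psmd2, Psmd4 and Psmd14 allowed in any, up to 5 genes of each other list, Nfe2l1 and Ubb; every other member could be named. The highest correlation between 2 cells was 0.586. Cells are numbered within a class in accession order. The measures were tested on simulated data. Alternatives are given in the closing section. Software was R 4.3.3, edgeR 4.0.16 (TMM), DESeq2 1.42.0 (size factors only), matplotlib 3.10.9, scipy 1.17.1, pandas 2.3.3 and numpy 2.4.6 under Python 3.11.15.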

Additional observations from a re-analysis of the deposited data

Results flagged for a closer look

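The 18 cells labelled unknown, which entered no comparison, had regulatory particle genes at 2902 CPM in pooled counts (exact Poisson 95% interval 2881 to 2923), above the 2668 CPM (2652 to 2684) of the 24 insensitive cells; the intervals cover counting error only. Outside Rn45s the order was the reverse, at 4838 and 5196 CPM. Core genes were at 1947 CPM in the unknown and 1992 CPM in the insensitive cells. In the 5 cold-sensitive and 10 silent sensitive cells no cell stood apart from its class by Dixon's limit on 4 measures each (members detected, core CPM, regulatory CPM and core share).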

How the results depend on the processing

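Values are differences of mean log2(CPM + 1) unless named. For warm-sensitive cells the median member, -2.51, went to -0.75 on pooled counts, -0.98 relative to the median gene, -1.28 with DESeq2 size factors and -1.47 with a pseudocount of 10 CPM, where the median gene was at -0.66, 0, -0.58 and -0.82. The 28 members lower by 1 or more (70.0% of genes) became 18 with DESeq2 size factors (34.5% of genes), 13 of the 15 left with genes at 10 CPM in 50% of cells (74.5%), 13 on pooled counts (37.7%), 17 on pooled counts without warm-sensitive cell 2, chosen after seeing the data (41.1%), and 15 relative to the median gene (14.9%). For cold-sensitive cells the 15 lower members (48.4%, against 32.3% of genes) became 8 (25.8%) with TMM, DESeq2 size factors or the deposited signal, near the 24.7%, 27.1% and 25.6% of genes. They became 7 of 15 in 50% of cells (29.4% of genes), 9 relative to the median gene (21.6%), 7 within title letters (22.6%, below the 27.7% of genes) and 5 to 18 when each cell was left out (20.7% and 42.3%). The median member, -0.65, was -0.32 with TMM and -0.39 with the deposited signal (median gene -0.10 and -0.16). For silent sensitive cells the 14 (35.5% of genes) became 8 with DESeq2 size factors (20.6%), 9 with a pseudocount of 10 CPM (15.9%) and 5 of 15 in 50% of cells (33.3%, below the 37.1% of genes). Psmd11 in warm-sensitive cells went from -1.31 to 0.21 relative to the median gene, and Psma2 in silent sensitive cells from 1.14 to -0.12 without cells over 75% Rn45s. Members detected per warm-sensitive cell went from 9 to 22 at 1 count and to 14 thinned, and per silent sensitive cell from 11.5 to 23.5 and 17.5. Per insensitive cell they went from 22 to 29 and 24, and per silent insensitive cell from 16.5 to 25.5 and 20. Why these values moved was not tested. No paired analysis was possible because replicate numbers are accession order and no test was made.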

Other observations

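In the 18 cells of unknown class 5 to 33 of the 37 members were at 10 CPM or more, with a median of 18.5. Core genes took 40.2% of their summed core and regulatory counts, and Psmb1, a beta subunit, was their most abundant member, with 7.87% of the member counts. Psmd4, at 10 CPM or more in 8 of these 18 cells, had a median of 3.19 CPM, and Psmb8 was at 10 CPM or more in 1 of them.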
